A study of Ovis aries with 20 samples.

Results

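The genes described here carry newly made secretory proteins into the endoplasmic reticulum (ER) and between the ER and the Golgi apparatus. They were taken from the gene names of the count table by symbol alone: the SRP subunits, the SEC61 channel with SEC62, SEC63, TRAM and SSR, signal peptidase (SEC11 and SPCS), the COPII coat (SEC13, SEC16, SEC23, SEC24 and SEC31), SEC22, the COPI coat, and the TMED, KDELR and LMAN receptors. The rule found 59 of 24478 genes: 6 for signal recognition, 10 for the translocon, 5 for signal peptidase, 11 for COPII, 3 SEC22, 8 for COPI, 9 TMED, 3 KDELR and 4 LMAN genes. The rule reads symbols only, but the set was chosen with earlier results of these data known. Symbols of the rule that were not met in the table, such as SEC61G, SSR1 and SRPR, were not analysed here.

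A protein bound for secretion shows its signal peptide while it is still on the ribosome, is held by the signal recognition particle, passes the SEC61 channel, and has its signal peptide removed by signal peptidase. COPII vesicles then carry it from the ER towards the Golgi, and COPI vesicles carry escaped ER residents and transport receptors back. The acinar cells of the exocrine pancreas, which make the digestive enzymes, are known for an ER that fills much of the cell.

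Bulk RNA was sequenced from the fetal and newborn pancreas of 20 American Romney sheep, collected on gestation days 65, 80, 100 and 120 and at term (day 147). Each age had 2 wild type (WT) and 2 CFTR-/- animals, and 1 library was made per animal. CFTR is the chloride and bicarbonate channel that is defective in cystic fibrosis, and the study asked which genes of the pancreas depart from the normal course of development without it. All CFTR-/- animals were clones, made by somatic cell nuclear transfer from 1 male fetal fibroblast line in which exon 2 of CFTR had been targeted, whereas the WT animals had not been cloned, so genotype and cloning cannot be told apart. The 10 CFTR-/- animals are thus copies of 1 genome, and nothing in the sources used here says which animals of a group shared a ewe. The study's account does not give the sex of the WT animals, so sex may differ between the genotypes too. In 6 of the 10 groups the animal labels share a stem, and 1 animal label is given to 2 libraries of different groups, WT 65 days animal 1 and CFTR-/- 100 days animal 2, which were kept as labelled by group.

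Between 23171353 and 64947692 counts per library were assigned to genes, with a median of 61588258, and 1 count was worth 0.0101 to 0.0805 CPM (counts on a common library scale, set by edgeR's TMM factors over all 20 libraries). The shallowest libraries were CFTR-/- term animal 2 and CFTR-/- 100 days animal 2, with 35973948 in the latter. CFTR itself was at 13.7 to 34.6 CPM in WT and 11.6 to 45.8 CPM in CFTR-/- animals and did not pass the test at any age (adjusted p 0.653 to 1, edgeR), so its transcript level does not check the labels. WT 120 days animal 2 and CFTR-/- 100 days animal 2 stood apart from the rest: 7 adipocyte genes summed to 0.0343% and 0.0369% of the scaled counts, against 0.0171% at most in the other 18 libraries, and 11 lymphoid and myeloid genes to 0.0819% and 0.0832%, against 0.0268% at most. The 19 acinar genes, of which CTRL and PNLIP were at 0 in 1 library each, summed to 1.04% to 2.43% at 65 days and to 13.1% to 40.3% at term, so the label of pancreas holds.

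Per base of transcript the highest levels were those of translocon genes. SSR4 had the highest median over the 20 libraries, 1020 RPKM (CPM per kilobase of exon), ahead of SSR2 at 396, SEC61B at 269, SSR3 at 216 and SEC61A1 at 159 RPKM. SPCS2 (156 RPKM) and SEC11C (130 RPKM) of signal peptidase, COPE of the COPI coat (135 RPKM), and the cargo receptors TMED6 (124 RPKM) and TMED2 (118 RPKM) followed. At the other end COPG2 stood at 1.66, SEC16B at 0.577, TRAM2 at 0.15, TMED8 at 0.0514 and LMAN1L at 0.00524 RPKM. The 59 genes together took 0.447% to 0.644% of the scaled counts at 65 days. They took 1.21% and 1.36% in the WT term animals and 1.33% and 1.18% in the CFTR-/- term animals. The summed share thus overlapped between the genotypes at term, while the single genes, described next, did not move alike.

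Before term no member passed the test from 1 age to the next in either genotype, or between the genotypes. A gene was called at an adjusted p of at most 0.01 with a log2 fold change of at least 0.58 (1.5-fold) in edgeR's quasi-likelihood test, with p-values adjusted over all genes tested, and the share of all genes called was likewise 0% in each of these 10 comparisons. DESeq2 called 0 members in the 6 age steps and 1 member, lower in CFTR-/- animals, between genotypes before term. These DESeq2 counts stand without the share of all genes that DESeq2 called and describe that fit only. From 65 to 80 days in WT no member had an unadjusted p under 0.05, the smallest belonging to the barely detected LMAN1L (log2 -3.12 ± 1.58 SE). From 80 to 100 days in WT, 5 members were higher at an unadjusted p under 0.05, against 1.98% of all genes: SEC11C, a catalytic subunit of signal peptidase, SEC61A1, SSR3, SSR4 and TMED6. SEC11C stood first, at 65.8 and 58.9 CPM on day 80 and 186 and 93.9 CPM at 100 days (log2 1.17 ± 0.32 SE, edgeR adjusted p 1), and the 2 ages did not overlap although the first animal at 100 days was far above the second. From 100 to 120 days no WT member reached that mark, with SEC23A of the COPII coat closest (17.9 and 18.8 CPM, then 26.6 and 24.8 CPM, log2 0.49 ± 0.25 SE, edgeR adjusted p 0.74).

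In the CFTR-/- animals most members with an unadjusted p under 0.05 before term came from the step between 100 and 120 days, where CFTR-/- 100 days animal 2 is one of the libraries that stood apart. At that step 17 of 58 members tested were higher at an unadjusted p under 0.05, against 5.97% of all genes. The acinar genes summed to 5.66% and 0.432% at 100 days, the low value being that of the animal that stood apart, and to 10.4% and 10.7% at 120 days, and 7 of 19 were higher at the same mark. The ER retrieval receptor KDELR3 came first, with 30.9 and 31.4 CPM on day 100 and 68.2 in each animal at 120 days (log2 1.12 ± 0.27 SE, edgeR adjusted p 0.378). From 65 to 80 days SEC11C had the smallest p, with 32.3 and 25.8 CPM followed by 79 and 65.4 CPM (log2 1.32 ± 0.42 SE, edgeR adjusted p 0.792). From 80 to 100 days it was COPZ2, a zeta subunit of the COPI coat, whose ages overlapped: 13.6 and 25.4 CPM, then 22.3 and 50.3 CPM (log2 0.93 ± 0.40 SE, edgeR adjusted p 0.686). Without CFTR-/- 100 days animal 1 the library that stood apart was alone at its age, and the members called in that fit describe the fit only. Without CFTR-/- 100 days animal 2 the log2 fold change of COPZ2 from 80 to 100 days was 0.211.

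Between genotypes at the same early ages the COPI subunit COPG2 had the smallest p at 65 and at 80 days, and its values are given with those of all ages further on. At 65 days SEC11C was at 68.5 and 66.7 CPM in WT and 32.3 and 25.8 CPM in CFTR-/- animals, with no overlap (log2 -1.22 ± 0.40 SE, edgeR adjusted p 0.301). Marker sums also differed at this age. The acinar genes summed to 2.43% and 2.31% in WT and to 1.37% and 1.04% in CFTR-/- animals. The stromal genes summed to 0.952% and 1.12% against 1.73% and 1.86%. All 12 endocrine genes tested were lower at an unadjusted p under 0.05 (median log2 -2.02), beside 796 of 19522 genes. The part of these in the SEC11C values was not tested. At 100 days 6 members were lower in CFTR-/- animals at an unadjusted p under 0.05, against 4.79% of all genes, and COPZ2 was higher, at 15.3 and 11.1 CPM in WT and 22.3 and 50.3 CPM in CFTR-/- animals (log2 1.46 ± 0.48 SE, edgeR adjusted p 0.36). The second of those CFTR-/- animals, which stood apart, was the highest of all 20 libraries for COPZ2. At 120 days 5 members were higher in CFTR-/- animals, against 1.55% of all genes: TMED3, TMED4, KDELR3, SEC22A and SRP14. One of the WT animals at this age is WT 120 days animal 2, which stood apart. At the same mark 6 of 7 adipocyte, 5 of 5 erythroid and 5 of 11 lymphoid and myeloid genes were lower in CFTR-/- animals, beside 742 of 19522 genes. The part of these in the members' values was not tested. TMED4, a p24 cargo receptor, came first with 68.6 and 61.9 CPM in WT and 104 and 120 CPM in CFTR-/- animals (log2 0.78 ± 0.26 SE, edgeR adjusted p 0.893).

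From 120 days to term the WT pancreas showed a broad shift towards higher levels of these genes. At an unadjusted p under 0.05, 36 of the 59 members were higher at term, against 10.7% of all genes, and 2 were lower, against 14.3%. Both term animals lay above both 120-day animals for 41 members, against 20.5% of all genes, and below them for 4, against 22.7%. The members' median log2 fold change was 0.87, beside -0.05 over all genes. The threshold for a call was passed by no member, against 0.0107% of all genes (edgeR), and an adjusted p of at most 0.05 by 9, against 2.69%. DESeq2 called 20 members, beside 728 genes higher and 901 lower of the 18714 tested. The likelihood ratio test of edgeR called 11, beside 350 and 490 genes. Without WT 120 days animal 1, a library that stood apart (animal 2) was alone at its age. The log2 fold change of KDELR1 was then 1.72, against 0.526 without animal 2. That of SEC11C went the other way and was lowest, at 1.57, without animal 1. Over the 10 fits without 1 library the members' median ran from 0.698 to 0.996. Counts scaled by library total alone set the median of all genes at -0.47 and that of the members at 0.42. In bulk tissue more RNA of a gene per cell and more cells that express it cannot be told apart.

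Every role had a positive median in that WT step, from 0.36 for the LMAN and 0.69 for the translocon genes to 0.98 for COPII, 0.98 for KDELR and 1.12 for TMED. Without WT 120 days animal 2, which stood apart, the COPII median was 0.57 and that of the translocon 0.73, so that the order of these roles turned. Among members with an unadjusted p under 0.05 were 7 of 11 COPII, 7 of 9 TMED, 5 of 6 signal recognition, 4 of 5 signal peptidase, 4 of 10 translocon, 4 of 8 COPI, 2 of 3 SEC22, 2 of 3 KDELR and 1 of 4 LMAN genes. Sums of cell type markers also differed over this step: the acinar genes summed to 8.07% and 5.79% on day 120 and 40.3% and 13.1% at term, and the 12 stromal genes, none of them at 0 in any library, to 0.67% and 1.08% and then to 0.324% and 0.143%. At an unadjusted p under 0.05, 5 of 5 erythroid genes (median log2 -7.63), 7 of 11 lymphoid and myeloid genes (-3.46) and 4 of 7 adipocyte genes (-3.25) were lower at term, and of 10 hepatocyte genes 4 were higher and 1 lower (0.28). WT 120 days animal 2 had the higher sum of the erythroid, lymphoid and myeloid, and adipocyte genes at its age. The part of these shifts in the members' values was not tested. WT term animal 1 had the larger acinar share of the pair and the higher TMED median relative to WT 65 days (1.56 and 1.20 on the log2 scale), while the COPII median was higher in animal 2 (1.00 and 1.35).

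**Figure D1:**
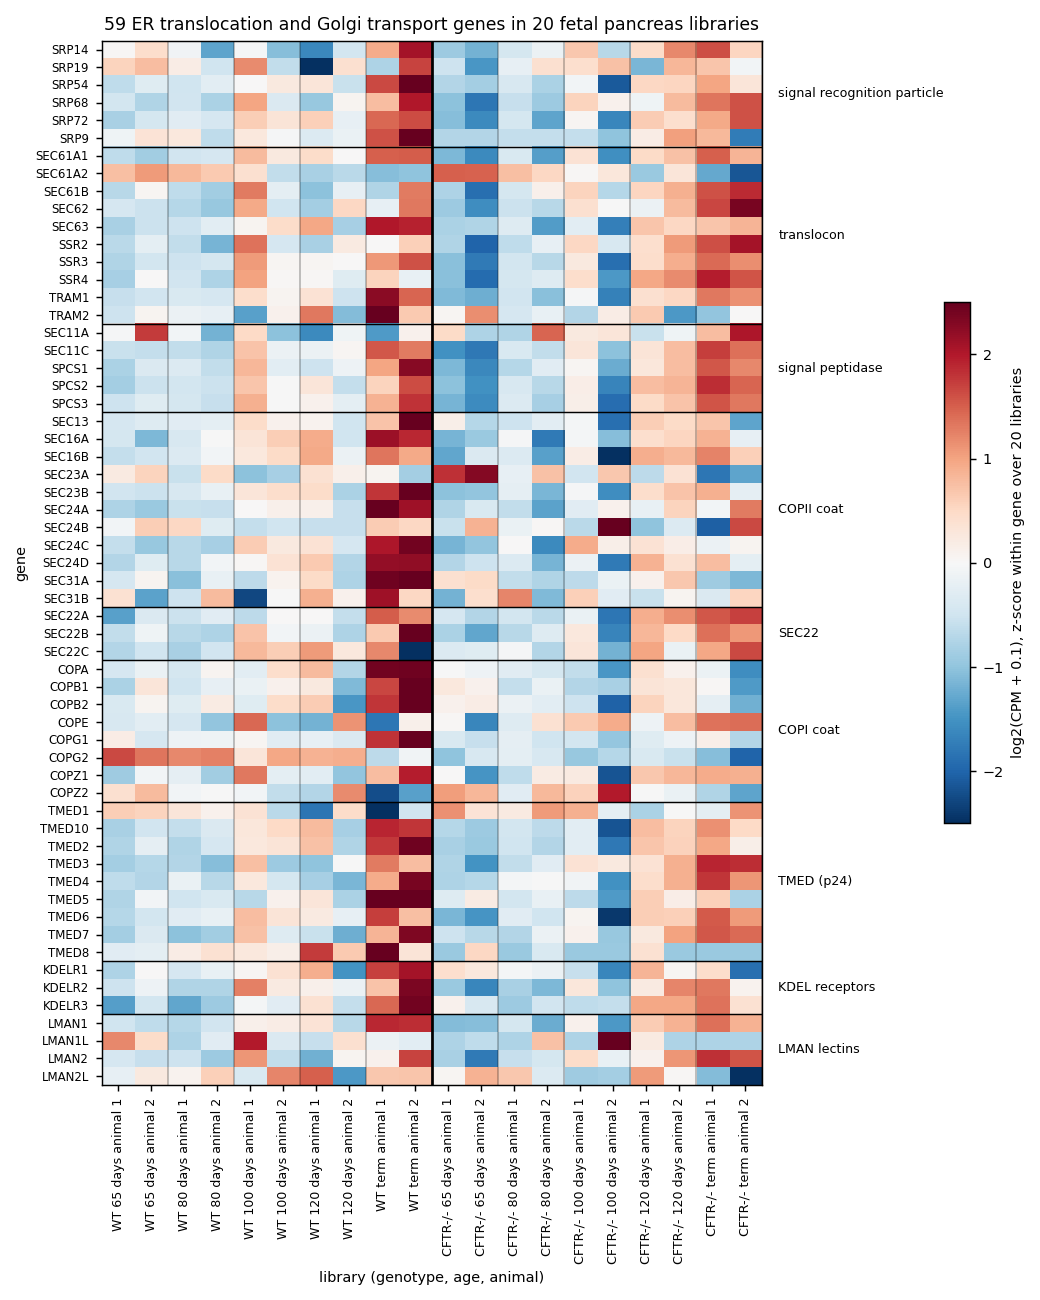
Levels of the 59 genes, in rows ordered by role, in the 20 animals, in columns ordered by genotype and age; the colour is each gene's log2(CPM + 0.1) relative to its own mean over the 20 animals, in units of its SD. Each role compared with itself over the columns, the COPII median has its highest values in the 2 WT term columns (1.00 and 1.35 above WT 65 days on the log2 scale). The translocon median has its highest in the 2 CFTR-/- term columns (1.18 and 1.24).

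In the CFTR-/- pancreas fewer members passed that mark between 120 days and term. Of 58 members tested, 3 were higher at an unadjusted p under 0.05, against 3.28% of all genes, and 2 were lower, against 4.58%. TMED3, SEC62 and SEC11C were the 3 higher ones, and LMAN2L and SEC31A the lower. No member was called, against 0% of all genes, and DESeq2 and the likelihood ratio test called 0 as well. The term animals lay above the 120-day animals for 25 members, against 16.5% of all genes, and below for 10, against 27%. The members' median log2 fold change was 0.13, or 0.14 with genes that had no count in a group set at their bound, beside -0.09 over all genes, and it was -0.55 beside -0.78 when counts were scaled by library total.

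By role, the counts without overlap in this CFTR-/- step are read against the shares of all genes just given. All 5 signal peptidase genes and 8 of 10 translocon genes lay above the 120-day animals without overlap, with medians of 0.43 and 0.45, the latter turning to -0.23 under total count scaling. No COPII gene lay above without overlap and 3 of 11 lay below, near the 27% of all genes, for a median of -0.06, or -0.50 without CFTR-/- term animal 1. In COPI 5 of 8 genes lay below without overlap, against the same 27%. The COPI median was -0.40, but -0.71 without CFTR-/- term animal 1 and -0.16 without animal 2. The acinar genes summed to 10.4% and 10.7% on day 120 and 36.3% and 21.3% at term in the same animals, and the stromal genes to 0.979% and 0.655% and then to 0.29% and 0.288%. These marker sums thus went the same way as in WT.

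**Figure D2:**
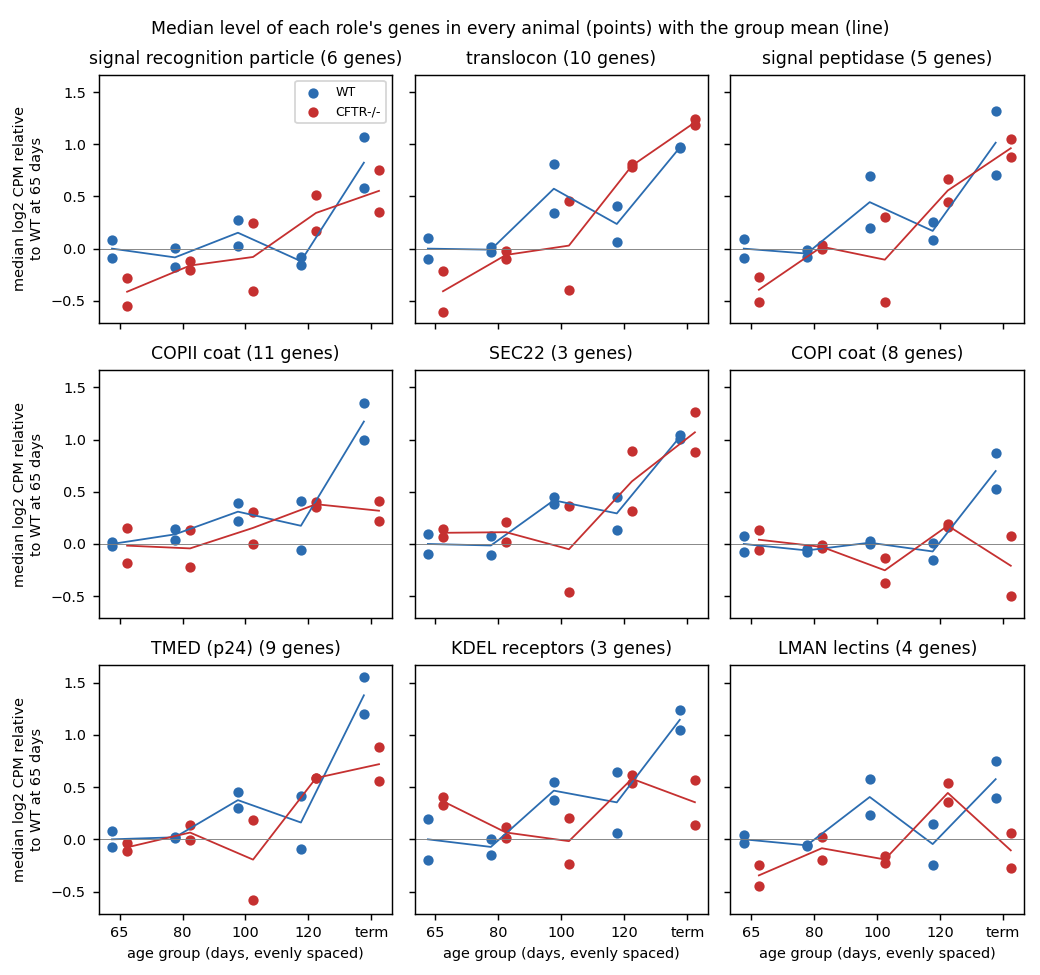
Median log2 CPM of the genes of each role in each animal, relative to the mean of the 2 WT animals at 65 days, by age in days (evenly spaced on the axis), 1 point per animal and lines through the group means, with the genotypes in separate colours. At term the 2 WT animals lie above the 2 CFTR-/- animals for COPII (1.00 and 1.35 against 0.42 and 0.22) and COPI (0.52 and 0.88 against 0.08 and -0.50), but below them for the translocon (0.98 and 0.96 against 1.18 and 1.24). The translocon genes did not share that order 1 by 1. Their median log2 fold change between genotypes at term was -0.13, with 4 of 10 positive. Without overlap 4 were higher and 5 lower in CFTR-/- animals.

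The difference between the genotypes in this step was tested directly, as the interaction of genotype with age. It was negative, the shift being smaller or opposite in CFTR-/- animals, for 50 of 59 members, with a median of -0.57 beside -0.13 over all genes. At an unadjusted p under 0.05 the interaction was negative for 18 members, against 8.58% of all genes, and positive for 0. No member was called, against 0% of all genes (edgeR, smallest adjusted p among the members 0.113), while DESeq2 called 5, beside 102 genes positive and 171 negative of 19522, and the likelihood ratio test 1, beside 42 and 51. In 5 members, SEC24C, SEC31A, COPA, COPB1 and COPB2, the WT term animals lay above and the CFTR-/- term animals below both 120-day animals of their genotype, against 4.49% of all genes. The 18 were 5 COPII, 4 COPI, 3 signal recognition, 3 TMED, 2 KDELR and 1 LMAN gene, and no translocon, signal peptidase or SEC22 gene. Total count scaling set the members' median at -0.87 and that of all genes at -0.39. The WT animals at 120 days in this test include animal 2, which stood apart.

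Compared directly at term, lower levels in CFTR-/- animals were found mostly among genes of the coats. By the study's account the RNA of the CFTR-/- term pancreas was slightly less intact than that of WT, and longer members had lower fold changes in this comparison (Spearman's rho -0.46 over the members, given in full further on). The part of RNA integrity in the values was not tested. Of the 59 members 21 were lower at an unadjusted p under 0.05, against 15.9% of all genes, and 5 were higher, against 11.7%. The 21 were 7 of 11 COPII, 4 of 8 COPI, 3 of 9 TMED, 2 of 3 KDELR and 1 of 4 LMAN genes, with 2 of 6 signal recognition and 2 of 10 translocon genes. The CFTR-/- animals lay below the WT animals without overlap for 29 members, against 32.7% of all genes, and above them for 10, against 21.3%. An adjusted p of at most 0.05 was reached by 9 members, all lower, against 9.54% of all genes. The members' median was -0.28, or -0.25 with bounds, beside -0.17 over all genes. Total count scaling set these medians at -0.78 and -0.71. By role the medians ran from 0.15 for SEC22 and 0.14 for signal peptidase through -0.13 for the translocon, -0.13 for TMED and -0.17 for signal recognition to -0.75 for KDELR, -0.82 for COPII, -0.84 for COPI and -1.15 for LMAN, where LMAN1L had no count in CFTR-/- term animals and LMAN1 itself was at -0.49.

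The 1 member called at term was SEC31A, which forms the outer cage of the COPII coat, against 0.789% of all genes called and 0.441% called lower. It was at 118 and 120 CPM in the WT animals and at 48.6 and 45.7 CPM in the CFTR-/- animals. Each pair agreed within a few CPM and the groups did not overlap, and the level was 2.51-fold lower in CFTR-/- animals (log2 -1.33 ± 0.22 SE, edgeR adjusted p 0.00701). The call was kept when 1 of WT 100 days animal 2, either WT 120-day animal, WT term animal 1 or either CFTR-/- 100-day animal was left out, and lost with any of the other 14 libraries, the adjusted p running from 0.00364 to 0.078, the latter without CFTR-/- term animal 2. The log2 fold change moved between -1.40 and -1.32 only. With the 4 term libraries alone the adjusted p was 0.0606. The next counts have no share of all genes beside them and describe the fits only. Without both libraries that stood apart 8 members were called, and without either WT 120-day animal 6.

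**Figure D3:**
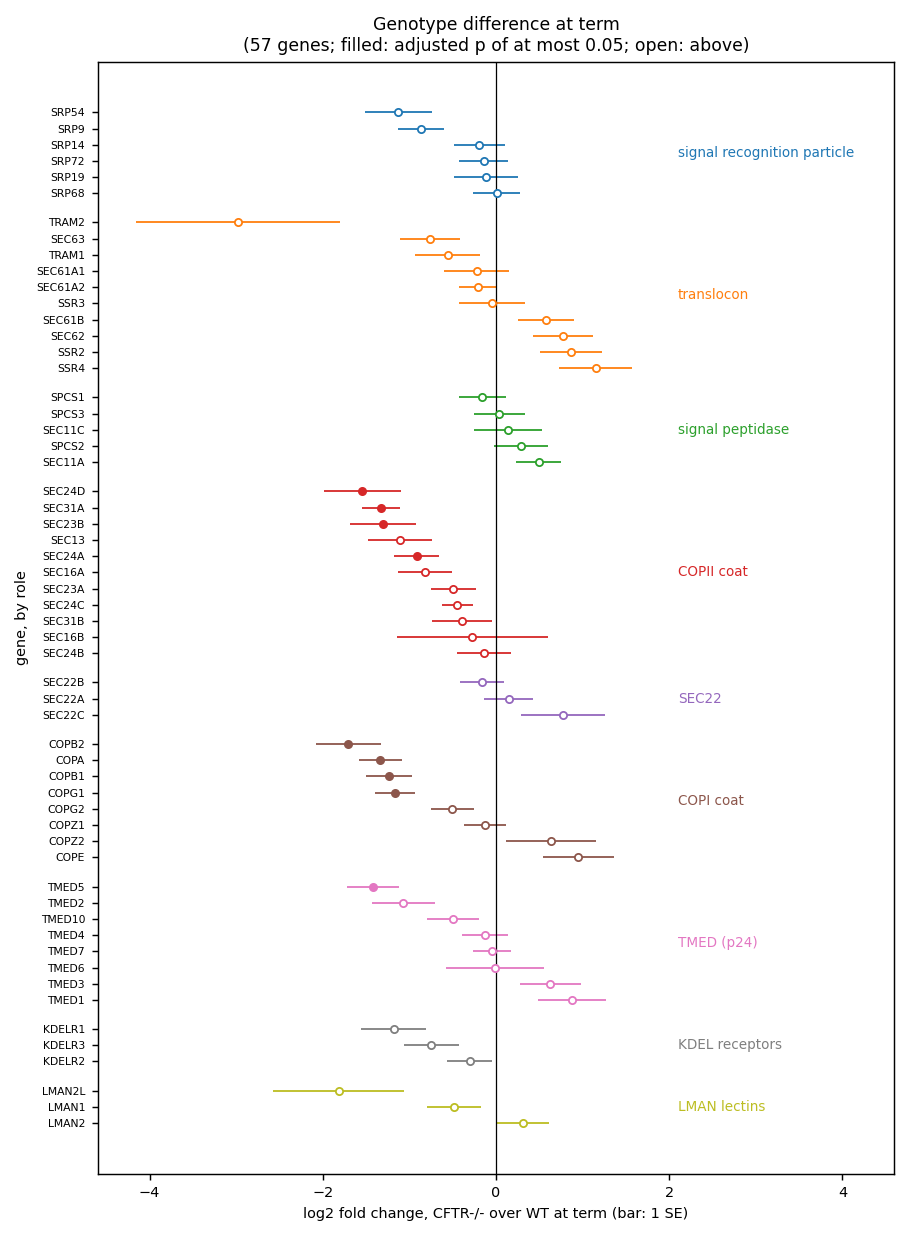
Log2 fold change of each member between CFTR-/- and WT at term, with its standard error, grouped by role; 57 genes are drawn, since TMED8 and LMAN1L had no count in both CFTR-/- term animals, and filled symbols mark the 9 genes with an adjusted p of at most 0.05. All 11 COPII genes lie below 0, whereas SSR2, SSR4, SEC62, TMED1 and COPE lie above it.

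Signal recognition came first in the order of the pathway. SRP54, the GTPase subunit that binds the signal peptide, was at 92.9 and 60 CPM on day 120 and 186 and 307 CPM at term in WT (log2 1.69 ± 0.31 SE, edgeR adjusted p 0.0354). CFTR-/- animals had 104 and 105 CPM and then 133 and 92.6 CPM. Both WT term animals were thus above all others, while the CFTR-/- ages overlapped (log2 0.11 ± 0.39 SE). The genotype difference at term was -1.13 ± 0.38 SE (edgeR adjusted p 0.0732). SRP9, which with SRP14 holds back elongation while the ribosome docks, was at 26.9 and 28.1 CPM and then at 43.3 and 57.8 CPM in WT, and at 30.5 and 37.6 CPM and then at 35.7 and 19.1 CPM in CFTR-/- animals. It was lower in CFTR-/- than in WT term animals without overlap (log2 -0.86 ± 0.27 SE, edgeR adjusted p 0.0536). SRP68 and SRP72, which bind each other on the particle, overlapped between genotypes at term. SRP68 was at 105 and 145 CPM and then at 181 and 270 CPM in WT, and at 137 and 183 CPM and then at 217 and 236 CPM in CFTR-/- animals (0.01 between genotypes at term on the log2 scale). SRP72 stood at 154 and 166 CPM in WT and at 127 and 163 CPM in CFTR-/- term animals. SRP14 and SRP19 overlapped as well (111 and 159 CPM against 137 and 98.4 CPM for SRP14, 47.5 and 89.9 CPM against 69.4 and 57.1 CPM for SRP19).

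In the translocon SEC61A1, the subunit that forms the pore, was at 564 and 451 CPM on day 120 and 955 and 966 CPM at term in WT (log2 0.92 ± 0.28 SE, edgeR adjusted p 0.093). The CFTR-/- animals went from 574 and 653 CPM to 953 and 689 CPM, so that the first term animal lay at the WT level and the second below it. TRAM1, which lies beside the channel and takes in the nascent chain, was at 292 and 175 CPM and then at 876 and 549 CPM in WT (log2 1.61 ± 0.33 SE, edgeR adjusted p 0.0443), and at 300 and 318 CPM and then at 508 and 459 CPM in CFTR-/- animals (log2 0.65, edgeR adjusted p 0.69). SEC61A2, the second pore gene, showed neither pattern, with 21.4 and 22.1, then 20.1 and 20.5 CPM in WT, and 20.8 and 28, then 19.2 and 15.6 CPM in CFTR-/- animals. Part of its exons, 140 bases, is shared with DHTKD1, as 66 bases of SEC61B are with ALG2, 125 of SEC62 with LOC105603413, 73 of SPCS1 with GLT8D1, 528 of TMED4 with OGDH and 6 of KDELR3 with DDX17, and reads there are uncertain. SEC63, which works with SEC62, was lower in CFTR-/- than in WT term animals, with 128 and 137 CPM against 230 and 220 CPM (log2 -0.76 ± 0.34 SE, edgeR adjusted p 0.164).

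Of the 5 members that were higher in CFTR-/- animals at term at an unadjusted p under 0.05, 3 belong to the translocon. SSR4 is the delta subunit of the translocon-associated protein complex, and its gene lies on chromosome X. It was at 988 and 679 CPM in the WT term animals and at 2030 and 1660 CPM in the CFTR-/- term animals. It was higher without overlap (log2 1.15 ± 0.42 SE, edgeR adjusted p 0.0937), and it had already been at 1220 and 1370 CPM at 120 days in CFTR-/- animals, against 756 and 636 CPM in WT. SSR2, the beta subunit, followed with 534 and 669 CPM in WT and 999 and 1190 CPM in CFTR-/- animals at term (log2 0.86 ± 0.36 SE, edgeR adjusted p 0.132). SEC62, which serves short and post-translational substrates, was at 287 and 516 CPM in WT and at 592 and 780 CPM in CFTR-/- animals at term (log2 0.77 ± 0.35 SE, edgeR adjusted p 0.161). From 295 and 422 CPM at 120 days it was higher at term without overlap in CFTR-/- animals (log2 0.94 ± 0.29 SE, edgeR adjusted p 0.489), whereas WT went from 224 and 379 CPM with overlap. None of these differences passed an adjusted p of 0.05, and that of SEC62 was 0.35 without WT term animal 1 and 1.26 without animal 2. SEC61B, the beta subunit of the channel, was also higher without overlap at term, with 162 and 306 CPM in WT and 335 and 363 CPM in CFTR-/- animals (log2 0.58 ± 0.32 SE, edgeR adjusted p 0.261), and SSR3 overlapped (418 and 543 CPM against 494 and 437 CPM). TRAM2 was at 7.95 and 1.61 CPM in WT and 0.42 and 0.966 CPM in CFTR-/- animals at term, a gene of few counts (log2 -2.98 ± 1.18 SE, edgeR adjusted p 0.115).

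No signal peptidase gene had an unadjusted p under 0.05 between the genotypes at term. SEC11C was at 94 and 111 CPM on day 120 and 363 and 297 CPM at term in WT (log2 1.69 ± 0.32 SE, edgeR adjusted p 0.0382). The CFTR-/- values were 137 and 195 CPM and then 414 and 314 CPM (log2 1.14 ± 0.41 SE, edgeR adjusted p 0.591). Ages did not overlap in either genotype, while the genotypes overlapped at term (log2 0.14 ± 0.39 SE, edgeR adjusted p 0.848). SEC11A, the other catalytic subunit, overlapped between ages in WT and not in CFTR-/- animals, with 46.7 and 60.1 CPM and then 48.1 and 62.4 CPM in WT and 55.6 and 60.1 CPM and then 69.6 and 86.1 CPM in CFTR-/- animals. SPCS1, an accessory subunit, was at 72.1 and 82.6 CPM and then at 121 and 189 CPM in WT (log2 1.00, edgeR adjusted p 0.0833), and at 95.2 and 112 CPM and then at 147 and 130 CPM in CFTR-/- animals. SPCS2 ended at 312 and 476 CPM in WT and at 518 and 443 CPM in CFTR-/- animals (log2 0.29, edgeR adjusted p 0.595, and -0.28 under total count scaling), and SPCS3, which is needed for the enzyme to work, at 325 and 450 CPM against 416 and 380 CPM.

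Of the COPII genes 1, SEC31A, was called at term. All 11 had a negative log2 fold change between CFTR-/- and WT, 7 of them at an unadjusted p under 0.05, against 15.9% of all genes, and 8 were lower without overlap, against 32.7%. SEC24A, an inner coat subunit that selects cargo, was at 36.1 and 27.8 CPM on day 120 and 92.4 and 75.2 CPM at term in WT. That step gave it the smallest p of all members (log2 1.39 ± 0.22 SE, edgeR adjusted p 0.0237). In CFTR-/- animals it was at 32.3 and 42.3 CPM and then at 33.6 and 55.9 CPM, which overlapped, and the genotypes did not overlap at term (log2 -0.92 ± 0.26 SE, edgeR adjusted p 0.0405). SEC24D, a second cargo adaptor, went from 72.2 and 32.2 CPM to 175 and 178 CPM in WT (log2 1.76 ± 0.37 SE, edgeR adjusted p 0.046), and from 81.3 and 61.8 CPM to 77.6 and 42.8 CPM in CFTR-/- animals. The genotype difference at term was -1.54 ± 0.44 SE (edgeR adjusted p 0.0419), the widest of the role.

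SEC23B, the GTPase-activating subunit that pairs with SEC24, had the same shape. It was at 105 and 56 CPM and then at 203 and 304 CPM in WT (log2 1.65 ± 0.32 SE, edgeR adjusted p 0.0395), and at 104 and 120 CPM and then at 130 and 74.8 CPM in CFTR-/- animals, with a genotype difference at term of -1.30 ± 0.38 SE (edgeR adjusted p 0.0454). Its paralogue SEC23A did not share the WT rise: WT animals were at 26.6 and 24.8 CPM and then at 24.3 and 18.7 CPM, and CFTR-/- animals at 19.8 and 26.3 CPM and then at 14.3 and 16.4 CPM. The CFTR-/- term animals were still below the WT term animals without overlap, and below their own 120-day animals. SEC31A was at 70.1 and 50.1 CPM in WT at 120 days, ahead of the term values above (log2 0.98 ± 0.24 SE, edgeR adjusted p 0.0641). At that age it stood at 63.6 and 73.7 CPM in CFTR-/- animals, above both term animals (log2 -0.54 ± 0.21 SE, edgeR adjusted p 0.608). Its interaction, -1.52 ± 0.30 SE, had the smallest p of the members (edgeR adjusted p 0.113). The outer cage, the scaffold and a cargo adaptor were lower in CFTR-/- term animals without overlap. SEC13, the partner of SEC31A in the cage, was at 85.8 and 196 CPM in WT and at 85.5 and 44 CPM in CFTR-/- animals (log2 -1.11 ± 0.37 SE, edgeR adjusted p 0.0698), so the first animal of each group was nearly level. SEC16A, the scaffold of ER exit sites, was at 165 and 151 CPM against 106 and 72.4 CPM (log2 -0.82 ± 0.31 SE, edgeR adjusted p 0.101). SEC24C, another cargo adaptor, was at 110 and 116 CPM against 81.3 and 83.8 CPM (log2 -0.45 ± 0.18 SE, edgeR adjusted p 0.123). SEC31B, at 7.54 to 19 CPM over all libraries, SEC24B, at 19.8 to 46 CPM, and SEC16B, at 0 to 15.7 CPM, overlapped between genotypes at term.

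Of the SEC22 genes, SEC22B encodes a SNARE protein of the ER and Golgi that acts in vesicle fusion. SEC22B was at 85.8 and 73.4 CPM and then at 105 and 166 CPM in WT, and at 109 and 101 CPM and then at 125 and 116 CPM in CFTR-/- animals, with overlap between genotypes at term. Its difference there, -0.17 on the log2 scale, turned to 0.21 without WT term animal 2. SEC22A was at 19.1 and 15.4 CPM and then at 32.9 and 29.1 CPM in WT (log2 0.84, edgeR adjusted p 0.11), and at 26.5 and 29 CPM and then at 33.3 and 35.3 CPM in CFTR-/- animals. SEC22C was at 20.4 and 4.68 CPM in the WT term animals and at 18.7 and 24.2 CPM in the CFTR-/- term animals. The groups overlapped because the first WT animal lay above the first CFTR-/- animal. The log2 difference of SEC22C was 0.0569 without WT term animal 2 and 2.12 without animal 1.

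In COPI 4 of 8 genes were lower in the CFTR-/- term animals at an adjusted p of at most 0.05 (edgeR). ARCN1, a further coatomer gene, does not match the rule and was counted among the coat regulators and tethers. COPA, the alpha subunit of coatomer, was at 162 and 105 CPM on day 120 and 259 and 261 CPM at term in WT (log2 0.96 ± 0.26 SE, edgeR adjusted p 0.0737). The CFTR-/- animals had 145 and 133 CPM and then 123 and 82 CPM. WT ages and genotypes at term did not overlap (log2 -1.34 ± 0.25 SE between genotypes, edgeR adjusted p 0.0106), and the CFTR-/- term animals lay below their own 120-day animals. COPG1, the main gamma subunit, was at 131 and 126 CPM and then at 224 and 358 CPM in WT (log2 1.17 ± 0.26 SE, edgeR adjusted p 0.0508), and at 128 and 134 CPM and then at 144 and 114 CPM in CFTR-/- animals (-1.17 ± 0.23 SE between genotypes at term, edgeR adjusted p 0.0117). COPB1, the beta subunit, was at 74.4 and 51.4 CPM and then at 110 and 167 CPM in WT, and at 76.1 and 75.3 CPM and then at 70 and 47 CPM in CFTR-/- animals. Its genotypes were apart at term (log2 -1.24 ± 0.26 SE, edgeR adjusted p 0.0141). COPB2, the beta prime subunit, had the widest difference of these. It was at 79.4 and 33.2 CPM and then at 129 and 175 CPM in WT, and at 76.9 and 68.9 CPM and then at 55.7 and 36.9 CPM in CFTR-/- animals (log2 -1.70 ± 0.38 SE, edgeR adjusted p 0.0165).

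None of the remaining COPI genes was lower at term at an unadjusted p under 0.05. COPE, the epsilon subunit, was at 89.6 and 166 CPM in the WT term animals and at 245 and 249 CPM in the CFTR-/- term animals, higher without overlap (log2 0.95 ± 0.41 SE, edgeR adjusted p 0.143), a difference of 0.51 without WT term animal 1 and 1.46 without animal 2. It had been at 110 and 229 CPM in WT and 153 and 204 CPM in CFTR-/- animals at 120 days. COPZ1, the main zeta subunit, was at 218 and 268 CPM in WT and at 224 and 222 CPM in CFTR-/- animals at term, with overlap. COPZ2 was at 10.3 and 31.7 CPM and then at 4.33 and 7.22 CPM in WT (log2 -1.86 ± 0.50 SE, edgeR adjusted p 0.0761) and stood at 15.8 and 14.6 CPM and then at 10.3 and 7.4 CPM in CFTR-/- animals. With COPG2 it was 1 of the 2 members lower at term than at 120 days in WT at an unadjusted p under 0.05, and the higher of its 120-day animals was the one that stood apart.

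**Figure D4:**
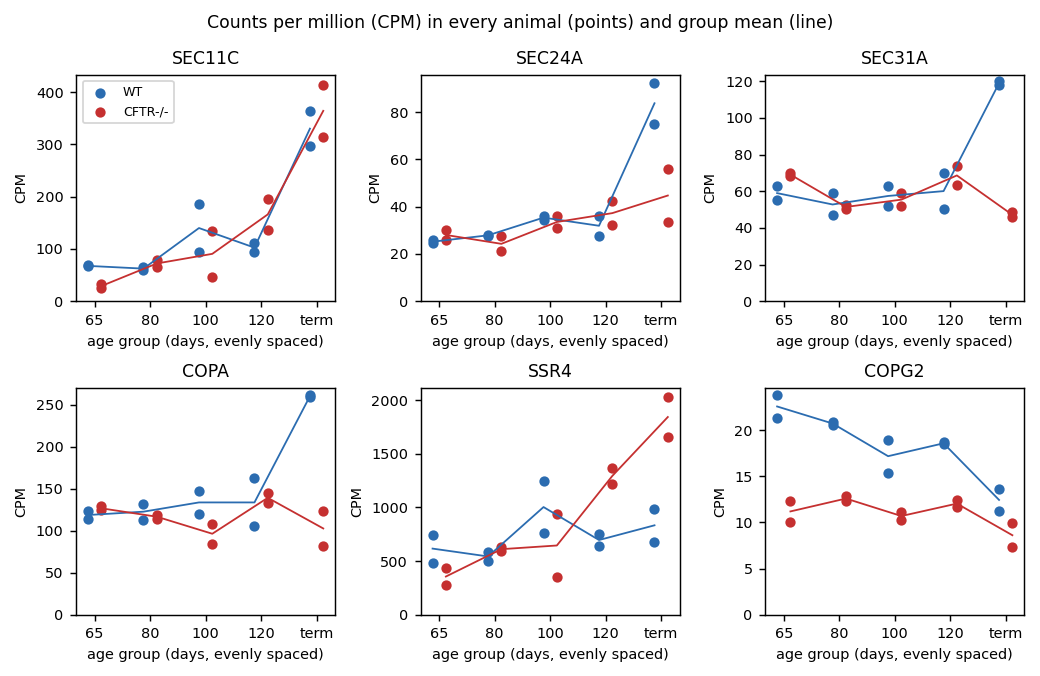
CPM of SEC11C, SEC24A, SEC31A, COPA, SSR4 and COPG2 in each animal by age in days (evenly spaced on the axis), 1 point per animal, with WT and CFTR-/- animals in separate colours and lines through the means of the 2 animals. At term SEC31A is at 118 and 120 CPM in WT and at 48.6 and 45.7 CPM in CFTR-/- animals, SSR4 has the opposite order, SEC11C overlaps, and COPG2 is lower in CFTR-/- animals at every age.

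COPG2, the second gamma subunit of coatomer, was lower in CFTR-/- animals over all ages (log2 -0.72 ± 0.10 SE, edgeR adjusted p 0.00257), a level 1.64-fold lower. It was the 1 member called in that comparison, against 0.2% of all genes called and 0.128% called lower. In WT it was at 23.8 and 21.4 CPM at 65 days, 20.6 and 20.9 at 80, 15.4 and 19 at 100, 18.5 and 18.7 at 120 and 11.3 and 13.6 CPM at term. In CFTR-/- animals it was at 10.1 and 12.3 CPM, 12.9 and 12.3, 10.3 and 11.1, 12.4 and 11.7, and 9.91 and 7.32 CPM at the same ages. Every CFTR-/- animal was below both WT animals of its age, which held for 1 member and 0.292% of all genes. At 65 days the difference was -1.01 ± 0.23 SE (edgeR adjusted p 0.17) and at term -0.50 (edgeR adjusted p 0.202).

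The call for COPG2 was kept in all 20 fits without 1 library, with an adjusted p of 0.00199 to 0.00874, and it was lost under total count scaling (0.0268). It was kept in 10 of 11 other settings. Of the other members 5 had an unadjusted p under 0.05 in the same direction over all ages, against 6.73% of all genes for the 6 together: TMED8, SEC23B, COPA, SEC16A and COPG1. COPG2 lies on the reverse strand of chromosome 4 in Oar_v4.0, from 94270534 to 94410724. Its neighbour MEST, on the forward strand from 94252694 to 94270316, shares no exon base with it, and MEST was at 220 and 325 CPM in WT and 343 and 313 CPM in CFTR-/- animals on day 65 and 60.4 and 88.1 CPM and 55.2 and 86.1 CPM at term, with overlap at both ages and at 80 days. At 100 days both CFTR-/- animals were above both WT animals for MEST (210 and 182 CPM against 95.8 and 127 CPM), and likewise at 120 days (123 and 107 CPM against 73.2 and 102 CPM).

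The p24 cargo receptors of the TMED family divided between both patterns. TMED5 was at 33.1 and 21.4 CPM on day 120 and 79.3 and 80.2 CPM at term in WT (log2 1.55 ± 0.28 SE, edgeR adjusted p 0.0354), and at 37.4 and 31.4 CPM and then at 37.3 and 21.4 CPM in CFTR-/- animals. The WT term animals were above all others, and the genotypes differed at term by -1.43 ± 0.30 SE (edgeR adjusted p 0.0138). TMED2, a receptor that COPI and COPII both bind, was at 380 and 184 CPM and then at 627 and 864 CPM in WT (log2 1.40, edgeR adjusted p 0.0682), and at 372 and 350 CPM and then at 422 and 285 CPM in CFTR-/- animals (-1.07 ± 0.36 SE between genotypes at term, edgeR adjusted p 0.0733). TMED4, in contrast, was at 122 and 196 CPM in WT and at 161 and 129 CPM in CFTR-/- term animals, which overlapped, although its WT step was 1.28 ± 0.27 SE (edgeR adjusted p 0.0457).

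TMED3 had higher values at term than at 120 days in both genotypes. WT animals were at 97.2 and 163 CPM and then at 321 and 246 CPM, and CFTR-/- animals at 198 and 261 CPM and then at 445 and 431 CPM, the smallest p of any member in that CFTR-/- step (log2 0.93 ± 0.26 SE, edgeR adjusted p 0.453). TMED6 was at 147 and 105 CPM and then at 473 and 223 CPM in WT, and at 198 and 196 CPM and then at 405 and 283 CPM in CFTR-/- animals, with overlap between genotypes at term. TMED7 overlapped as well, with 180 and 245 CPM against 209 and 203 CPM. TMED10, which pairs with TMED2, was at 660 and 633 CPM in WT and at 508 and 407 CPM in CFTR-/- animals at term (log2 -0.50 ± 0.30 SE, edgeR adjusted p 0.302). TMED1 was at 8.48 and 17.9 CPM in WT and at 19.3 and 29.7 CPM in CFTR-/- animals at term, higher without overlap (log2 0.87 ± 0.39 SE, edgeR adjusted p 0.163). TMED8 did not exceed 0.915 CPM in any library and had no count in both CFTR-/- term animals, so no fold is given.

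The KDEL receptors catch ER residents that have escaped to the Golgi and send them back in COPI vesicles. KDELR3 was at 51.1 and 31.4 CPM on day 120 and 85.6 and 139 CPM at term in WT (log2 1.44 ± 0.35 SE, edgeR adjusted p 0.0584). In CFTR-/- animals it was at 68.2 CPM in each animal and then at 82.1 and 50.9 CPM, so the term animals lay on either side of the younger ones (log2 -0.03, and 0.25 without CFTR-/- term animal 2). KDELR1 was at 50.5 and 21.8 CPM and then at 66.9 and 76.2 CPM in WT, and at 49.5 and 37.4 CPM and then at 43 and 19 CPM in CFTR-/- animals. It was lower in CFTR-/- than in WT term animals without overlap (log2 -1.18 ± 0.38 SE, edgeR adjusted p 0.0603). KDELR2 overlapped between genotypes at term, with 292 and 435 CPM in WT and 338 and 251 CPM in CFTR-/- animals.

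LMAN1, the lectin known as ERGIC-53 that carries glycoproteins out of the ER, was at 168 and 103 CPM on day 120 and 346 and 341 CPM at term in WT (log2 1.34 ± 0.26 SE, edgeR adjusted p 0.0395). CFTR-/- animals were at 193 and 216 CPM and then at 274 and 216 CPM. Its WT term animals were above all CFTR-/- animals, but the difference at term was -0.49 with an edgeR adjusted p of 0.324. LMAN2, a related lectin of the Golgi, was at 169 and 274 CPM in WT and at 285 and 265 CPM in CFTR-/- term animals, which overlapped. LMAN2L was at 11.8 and 2.18 CPM and then at 7.39 and 7.48 CPM in WT, and at 9.27 and 5.09 CPM and then at 2.68 and 1.13 CPM in CFTR-/- animals, where both the age step (log2 -1.76 ± 0.60 SE, edgeR adjusted p 0.557) and the genotype difference (-1.82 ± 0.75 SE, edgeR adjusted p 0.133) were negative without overlap. LMAN1L did not exceed 0.796 CPM in any library.

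Across the whole course, from 65 days to term, 10 members rose in WT, against 1.51% of all genes called higher and 2.77% called in either direction, and none fell. They were SEC24A, SEC11C, SRP54, LMAN1, SEC23B, TRAM1, SEC24D, SEC61A1, TMED5 and KDELR3, which span every role but SEC22 and COPI. SEC24A was at 25.9 and 24.5 CPM at 65 days, a 3.33-fold rise to term (log2 1.73 ± 0.23 SE, edgeR adjusted p 0.00423). SEC11C started from 68.5 and 66.7 CPM and rose 4.88-fold (log2 2.29 ± 0.33 SE, edgeR adjusted p 0.00562). SRP54 started from 57.5 and 68.5 CPM (log2 1.97 ± 0.31 SE, edgeR adjusted p 0.00754). All 3 had both term animals above every younger WT animal. The number of members called was 3 with upper quartile scaling (SRP54, SEC11C and SEC24A), 2 with the legacy quasi-likelihood fit (SEC11C and SEC24A) and 2 with total count scaling (SEC11C and COPZ2, the latter not among the 10). These counts stand without the share of all genes called under each setting and describe the settings only.

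The other 7 lay close to the threshold. LMAN1 started from 113 and 107 CPM (log2 1.64 ± 0.26 SE, edgeR adjusted p 0.00766) and SEC23B from 65.2 and 63.5 CPM (log2 1.98 ± 0.33 SE, edgeR adjusted p 0.00819). TRAM1 started from 168 and 178 CPM (log2 2.04 ± 0.34 SE, edgeR adjusted p 0.00828), SEC24D from 32.3 and 41.7 CPM (log2 2.26 ± 0.38 SE, edgeR adjusted p 0.00883) and SEC61A1 from 325 and 288 CPM (log2 1.65 ± 0.28 SE, edgeR adjusted p 0.00915). These 5 genes serve cargo export, the coat and the channel, and each at least doubled in both term animals. TMED5 and KDELR3 were called at adjusted p of 0.00922 and 0.00987, and TMED6 missed the call at 0.0105 (edgeR).

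At an adjusted p of at most 0.05 there were 29 members, against 13.1% of all genes, and at an unadjusted p under 0.05 there were 39 higher, against 16.9%, and 3 lower, against 15.1%. COPZ2, COPG2 and SEC61A2 were the lower ones. The members' median log2 fold change was 1.08, beside -0.01 over all genes. No share of all genes stands beside the counts that follow, which describe the fits only. The number called was 21 without either WT 120-day animal, 2 without either term animal, 1 without either 100-day animal and 0 without any 65-day or 80-day animal.

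In CFTR-/- animals 3 members rose from 65 days to term, against 0.977% of all genes called higher and 1.99% in either direction, and none fell. TMED3 went from 111 and 75.5 CPM to 445 and 431 CPM (log2 2.25 ± 0.27 SE, edgeR adjusted p 0.00386). SEC11C went from 32.3 and 25.8 CPM to 414 and 314 CPM, a 12.7-fold rise from a start below that of WT (log2 3.67, edgeR adjusted p 0.00394). Marker sums also differed between the genotypes at 65 days, as given above, and their part was not tested. SEC62 went from 220 and 172 CPM to 592 and 780 CPM (log2 1.82 ± 0.29 SE, edgeR adjusted p 0.00749). In all 3 both term animals were above every younger CFTR-/- animal. No COPII or COPI gene was called.

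At an adjusted p of at most 0.05 there were 23 members, against 12.9% of all genes, and at an unadjusted p under 0.05 there were 34 higher, against 14.2%, and 5 lower, against 15.6%. The lower ones were LMAN2L, COPZ2, SEC23A, SEC61A2 and SEC31A, and SEC31A had been at 68.4 and 69.8 CPM at 65 days. The members' median was 0.83, beside -0.17 over all genes. Here too the counts that follow stand without the share of all genes and describe the fits only. The number called was 23 without either CFTR-/- 100-day animal, 2 without either 80-day animal and 0 without any other CFTR-/- animal. Under total count scaling it was 20, of which 19 were lower, as the median of all genes then stood at -1.70 and that of the members at -0.70.

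Members that differed at term also differed in length. The 21 that were lower in CFTR-/- animals had a median exon length of 4052 bases (976 to 8812), and the 5 that were higher one of 1236 bases (697 to 3030), against 3018 for the members as a whole. Over the 59 members Spearman's rho between length and the log2 fold change at term was -0.46, beside -0.12 over all genes, a description across genes that share the same libraries. It was -0.44 for the CFTR-/- step from 120 days to term, where all genes gave -0.08, and near 0 for the WT step, -0.00152. Removing each library's own trend of log2 CPM with length set the rho at term to -0.28. SEC31A was still called after that step, with 2 members called in all. That count stands without the share of all genes and describes the fit only. The part of length in these differences was not tested further.

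**Figure D5:**
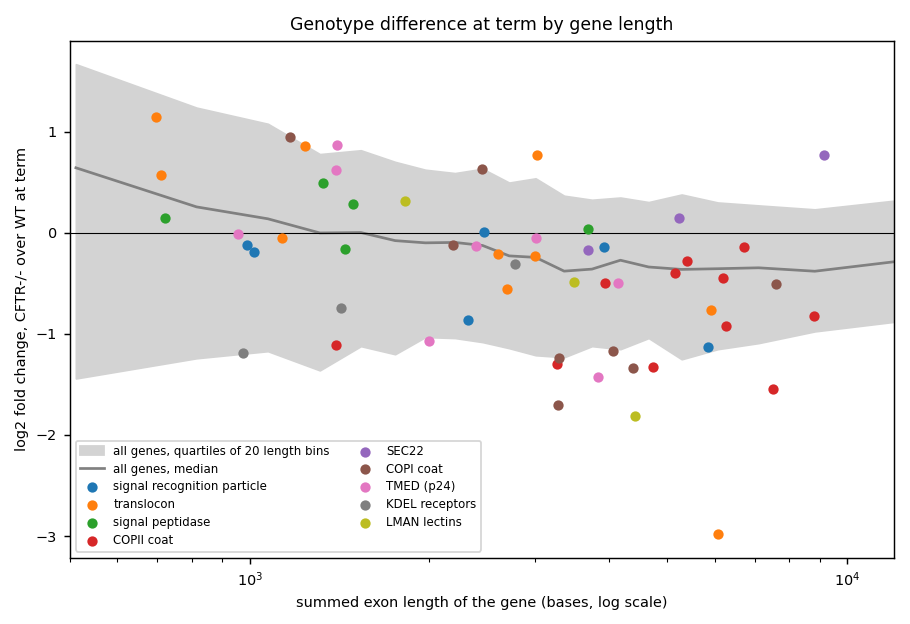
Log2 fold change between CFTR-/- and WT at term against exon length in bases (log axis), with 57 members as points coloured by role and the median of all genes in 20 bins of length, with their quartiles, behind them. Members longer than the median of 3018 bases lie mostly below 0, and the short SSR4 (697 bases) lies above it.

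Other genes of the pathway shared the WT shift and the genotype difference to unequal degrees. Of 29 genes for ER folding and the unfolded protein response, 24 were higher and 0 lower at term than at 120 days in WT at an unadjusted p under 0.05 (median log2 1.6), 3 and 1 in CFTR-/- animals (0.07), and 1 was higher and 15 lower in CFTR-/- than in WT at term (-0.82). The shares of all genes for these marks are 10.7% higher and 14.3% lower in the WT step, 3.28% and 4.58% in the CFTR-/- step, and 11.7% and 15.9% between genotypes, and they apply to the lists that follow. The folding genes summed to 1.84% and 4.07% of the scaled counts in the WT term animals, so that the second was far above the first, and to 1.58% and 1.09% in the CFTR-/- term animals. HERPUD1, an ER stress gene, had a WT step of 3.10 (edgeR adjusted p 0.0108). Of 48 coat regulators and tethers, which include the SAR1 and ARF GTPases and the SNAREs, 29 were higher in the WT step (0.92), 2 in the CFTR-/- step (0.02), and 3 were higher and 21 lower at term between genotypes (-0.44). The SNARE YKT6 was the 1 gene of these lists called there (log2 -1.57, edgeR adjusted p 0.00847).

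Of 16 genes for ER-associated degradation 11 were higher in the WT step (1.13) and 0 in the CFTR-/- step (0.17), and 8 were lower between genotypes at term (-0.66). The 12 genes of oligosaccharyltransferase, which adds N-glycans beside the translocon, gave 7 higher in the WT step (0.64), 1 in the CFTR-/- step (0.12) and 1 lower between genotypes (-0.14). The 17 genes for ER membrane insertion gave 5 higher (0.57), 1 higher and 1 lower (0.16), and 5 lower (-0.07).

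Marker lists of the cell types the tissue could hold did not all move with the coat genes at term. Between genotypes at term the acinar genes gave 2 higher and 0 lower at an unadjusted p under 0.05 (median 0.02 on the log2 scale), with sums of 40.3% and 13.1% in WT and 36.3% and 21.3% in CFTR-/- animals, which overlapped. The 10 duct genes gave 2 higher (0.24), the 12 stromal genes 3 higher and 1 lower (0.20), and 12 of the 13 endocrine genes, those that could be tested, 5 higher (1.18). Endocrine sums were 0.0888% and 0.263% in WT and 0.587% and 0.483% in CFTR-/- term animals. The 10 hepatocyte genes gave 2 higher (1.03), with sums of 0.234% and 0.367% in WT and 0.703% and 0.565% in CFTR-/- animals. The 7 adipocyte genes gave 1 lower (-2.64), the 5 erythroid genes 0 (-0.85), and the 11 lymphoid and myeloid genes 1 lower (-0.58). The 8 housekeeping genes gave 1 higher and 2 lower (-0.25). The part of endocrine and hepatocyte RNA in the members' differences was not tested.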

How the data were processed

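RNA from the pancreas of 20 sheep was primed with oligo dT, made into directional libraries and sequenced as read pairs. The authors aligned the reads to Oar_v4.0 with STAR (2.6 in the submitters' processing notes) and counted them per gene with featureCounts 1.6.3. The strand setting of the counting is not given in the sources used here. The deposited tables hold raw counts per gene, with exon lengths, for the WT, the CFTR-/- and all 20 libraries, and values shared between the tables differed in 0 cells. Members, roles and lists were chosen with earlier results of these data known.

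Genes were kept by edgeR 4.0.16's filterByExpr (minimum count 10, total 15), which left 18714 genes and 59 members for WT ages, 18737 and 58 for CFTR-/- ages (TMED8 was not kept), and 19522 and 59 for genotypes, the interaction and all ages. Libraries were scaled by TMM. The quasi-likelihood test (R 4.3.3, limma 3.58.1) was run over all genes of a table with Benjamini-Hochberg adjustment, and genes were called at 0.01 on the adjusted p together with 0.58 on the log2 fold change. The script was tested on simulated data. With 2 animals against 2 an exact permutation test of 1 gene cannot go below 0.333, so p-values rest on a spread estimated over all groups of a fit and measure only the spread between these animals. Groups that do not overlap were read from CPM.

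Genes given with every animal were the called members (at most 8 per comparison and direction by adjusted p), the 2 of each role with the smallest p in each of the term comparisons, members at an unadjusted p under 0.05 against the members' median direction, and the member of smallest p where none was called. Other pathway genes came from lists, at most 3 per comparison. The remaining members, such as SEC13, SEC63 and TMED10, were named after their values were seen. Of 240 list genes 217 were matched by name, 7 of them through RefSeq synonyms, and in the acinar, endocrine, adipocyte, erythroid, lymphoid and myeloid, hepatocyte and membrane insertion lists 2, 2, 5, 5, 6, 3 and 1 genes were at 0 in some library.

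Alternatives were an adjusted p of 0.05, DESeq2 1.42.0, the likelihood ratio test, RLE, upper quartile and total count scaling, no filter, a replicate block, the compared groups alone or all 20 libraries, leaving out each library and leaving out both that stood apart. The legacy quasi-likelihood fit and the removal of a length trend (loess, span 0.3) were chosen after seeing the data.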

Additional observations from a re-analysis of the deposited data

Results flagged for a closer look

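Of the coat genes 5 moved in opposite directions between 120 days and term in the 2 genotypes, with both term animals above both 120-day animals in WT and below them in CFTR-/- animals, and were set aside for a closer look for that reason. The interaction of genotype with age (CFTR-/- minus WT, log2 scale, edgeR) was -2.08 for COPB2, with an adjusted p of 0.134. It was -1.52 for SEC31A, with an adjusted p of 0.113, -1.50 for COPB1, with 0.131, and -1.39 for COPA, with 0.134. SEC24C had the smallest, -0.51, with an adjusted p of 0.342, from 87.1 and 78.2 CPM to 110 and 116 CPM in WT and from 87.2 and 84.9 CPM to 81.3 and 83.8 CPM in CFTR-/- animals. None of the 5 passed the threshold for a call, and the pattern held for 4.49% of all genes. WT 120 days animal 2, which stood apart, was the lower of its pair for all 5, with COPB2 at 79.4 and 33.2 CPM. The interaction of SEC31A was -1.34 without that animal and -1.78 without WT 120 days animal 1.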

How the results depend on the processing

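Results are counts of members called and their median log2 fold change. The counts in this section stand without the share of all genes called. That share also changed with the setting, as given above for DESeq2. The counts thus describe the settings and do not set the members apart from other genes. At an adjusted p of at most 0.05 the counts were 9 for WT term against 120 days, 9 between genotypes at term, and 29 in WT and 23 in CFTR-/- animals for term against 65 days. DESeq2 called 20 members in the WT step from 120 days to term, 32 from 65 days in WT, 25 in CFTR-/- animals, 9 between genotypes at term, 5 in the interaction and 1 between genotypes before term. The likelihood ratio test called 11, 22, 22, 6 and 1 in the first 5 of these. RLE scaling called 5 in CFTR-/- animals from 65 days and 3 between genotypes at term, and upper quartile scaling 3 in WT from 65 days. Total count scaling called 2 in WT and 20 in CFTR-/- animals from 65 days, 6 between genotypes at term and 0 over all ages, and set the medians at 0.419 (WT, 120 days to term), 0.399 (WT, from 65 days), -0.545 (CFTR-/-, 120 days to term), -0.698 (CFTR-/-, from 65 days), -0.776 (genotypes at term) and -0.866 (interaction). Without both libraries that stood apart the counts were 21 in WT and 23 in CFTR-/- animals from 65 days and 8 between genotypes at term. With the length trend removed they were 16 in WT from 65 days and 2 between genotypes at term, with all 20 libraries in the fit 16 and 17 from 65 days in WT and CFTR-/- animals, with the legacy fit 2 in WT from 65 days, and with the term groups alone 0 between genotypes. The causes were not tested.

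Replicate numbers did not pair the animals: same-numbered animals' deviations correlated at -0.455 to 0.264 in WT, -0.198 to 0.41 in CFTR-/- animals and -0.298 to 0.389 between genotypes. A replicate block called 0 members in WT and 8 in CFTR-/- animals from 65 days to term.

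Leaving out 1 library at a time, with the lone animal of its group assumed to vary like the others, gave 0 to 12 calls in the WT step from 120 days to term (median 0.698 to 0.996), 0 to 21 from 65 days (0.768 to 1.18), 0 to 23 from 65 days in CFTR-/- animals (0.649 to 0.968), 0 to 4 in the CFTR-/- steps before term, 0 to 1 between genotypes before term and 0 to 6 at term (-0.492 to -0.273). The median ran from 0.0215 to 0.213 in CFTR-/- animals from 120 days to term, from -0.783 to -0.52 for the interaction and from -0.226 to -0.0943 over all ages. For the genes given with every animal 974 values kept their direction and side of the threshold, 94 lost and 19 gained a call, and 3 turned. Under the other alternatives these numbers were 885, 32, 55 and 11. The values that turned were, under total count scaling in CFTR-/- animals from 120 days to term, TMED4 -0.308, LMAN2 -0.207, SEC11A -0.26, SRP68 -0.172, SRP72 -0.267, SEC22C -0.247 and SEC22A -0.38, and between genotypes at term SEC11A -0.0582 and SPCS2 -0.282. KDELR3 turned to 0.0031 with DESeq2, 0.00911 with RLE scaling and 0.246 without CFTR-/- term animal 2 (-0.431 without animal 1), SPCS2 to -0.0471 without WT term animal 1 (0.622 without animal 2) and SEC22B to 0.208 without WT term animal 2. Depth limited TMED8, LMAN1L and TRAM2.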
